A study of Homo sapiens with 6 samples.

Results

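The genes of MHC class I presentation were followed in KO52 cells in which DNA binding by C/EBP or by AP-1 factors was blocked with a dominant negative peptide, and in cells with an empty vector. The set held 9 genes, listed by name, with earlier results of these data known. They were 4 class I heavy chain genes (HLA-B, HLA-C, HLA-E, HLA-F), the light chain gene B2M, the peptide transporter genes TAP1 and TAP2, and the immunoproteasome subunit genes PSMB8 and PSMB9. Of 60612 gene IDs in the count tables, each of the 9 names matched 1 ID, and 9 of 9 passed the low-count filter that left 15395 genes tested.

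MHC class I molecules show peptides from inside a cell to CD8 T cells and, for HLA-E, to receptors of NK cells. The proteasome cuts proteins into peptides, and PSMB8 and PSMB9 replace catalytic subunits of the constitutive proteasome to form the immunoproteasome. TAP1 and TAP2 pair to carry the peptides into the endoplasmic reticulum, where a heavy chain bound to beta-2-microglobulin is loaded. Transcription of these genes is known to respond to interferons through IRF factors and to the factors NLRC5, RFX and NF-kB, which act at short motifs near the gene start. Loss of class I from the surface is a known route by which leukemic blasts avoid T cells.

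KO52 is an established acute myeloid leukemia line, labelled as CEBPA double mutant, so all groups carried that genotype. Every group also carried a doxycycline-inducible lentiviral vector. The vector encoded the C/EBP peptide (dnCEBP), the FOS peptide (dnFOS) or no peptide (EV, the control). A factor paired with such a peptide can no longer sit on its DNA site, so each comparison with EV asks what depends on that binding. Per the study's methods, induced cells were sorted for the GFP reporter of the vector, and the model is 1 cell line. Each group held 2 libraries, and the labels do not say whether these were separate cultures, so p-values measure only the spread between these libraries, which may be technical.

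Total counts ran from 9862994 to 27663179, and the 2 dnFOS libraries were the shallowest. Of 8 markers of myeloid blasts 8 were detected in every library. Their summed levels were 1029 to 1094 CPM (the count relative to the scaled library size) in EV, 955 in both dnCEBP libraries, and 805 to 832 in dnFOS. Single markers moved apart, with log2 fold changes from EV of -1.89 to 0.30 in dnCEBP and -0.58 to -0.01 in dnFOS. At an adjusted p under 0.05 (edgeR), 2 of 8 were lower in dnCEBP and 3 of 8 in dnFOS, and 0 higher. Of all genes, 1.07% and 15.0% passed in either direction. Of 14 markers of other blood and host cells, 12 had a count, among them CD3D, a T cell receptor gene, at 97.3 to 146 CPM as group means. As group means, PECAM1, an endothelial marker, stood at 66.0 to 77.0 CPM and EPCAM, an epithelial marker, at 29.1 to 33.8 CPM. NKG7, a T and NK cell marker, stood at 22.4 to 29.6 CPM. CD3E, which T cells use with CD3D, had 0 to 4 counts, and MS4A1, a B cell marker, had 0. The summed level of that list was 254 to 265 CPM in EV, 271 to 273 in dnCEBP and 215 to 232 in dnFOS, and the part of these marker levels in the results was not tested. In bulk RNA, fewer cells of a type and less RNA per cell cannot be told apart.

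B2M lies on chromosome 15 and the other genes on chromosome 6. On GRCh38 with the GENCODE 29 annotation, the heavy chain genes spanned 29722775 to 29738528 (HLA-F), 30489467 to 30494205 (HLA-E), 31268749 to 31272130 (HLA-C) and 31269491 to 31357188 (HLA-B, whose annotated span reaches into HLA-C). TAP2 (32821833 to 32838780), PSMB8 (32840717 to 32844703), TAP1 (32845209 to 32853978) and PSMB9 (32844136 to 32859585) were neighbours. B2M spanned 44711487 to 44718877. TAP1 and PSMB9 are transcribed away from each other, and their RefSeq starts lay 488 bases apart.

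RefSeq promoter windows on GRCh38.p14, 250 bases up to the gene start, were searched on both strands for 6 motifs chosen with these sequences in view. They are shown because the 2 peptides block factors that bind DNA, and because HLA-B and HLA-C, with windows 89.0% identical over their alignment, had different values in dnFOS. They are reference sequences and not the alleles of KO52. HLA-E had no entry. Capitals mark every match to AANNGAAA (the core read by interferon regulatory factors), GGGA, any 4 bases and CC (NF-kB), TGACG (cAMP response element core) and CCAAT (NF-Y).
HLA-B, chr6:31357180-31357429, minus strand: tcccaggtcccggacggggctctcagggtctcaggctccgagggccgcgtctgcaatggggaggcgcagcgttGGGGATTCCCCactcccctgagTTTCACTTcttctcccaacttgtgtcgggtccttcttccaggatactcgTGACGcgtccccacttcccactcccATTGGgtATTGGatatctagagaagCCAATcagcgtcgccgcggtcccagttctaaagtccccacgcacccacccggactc
HLA-C, chr6:31272093-31272342, minus strand: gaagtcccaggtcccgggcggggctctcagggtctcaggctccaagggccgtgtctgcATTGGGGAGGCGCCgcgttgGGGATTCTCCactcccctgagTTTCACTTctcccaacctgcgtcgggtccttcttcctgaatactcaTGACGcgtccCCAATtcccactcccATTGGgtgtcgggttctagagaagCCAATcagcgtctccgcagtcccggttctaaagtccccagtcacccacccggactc
B2M, chr15:44711267-44711516, plus strand: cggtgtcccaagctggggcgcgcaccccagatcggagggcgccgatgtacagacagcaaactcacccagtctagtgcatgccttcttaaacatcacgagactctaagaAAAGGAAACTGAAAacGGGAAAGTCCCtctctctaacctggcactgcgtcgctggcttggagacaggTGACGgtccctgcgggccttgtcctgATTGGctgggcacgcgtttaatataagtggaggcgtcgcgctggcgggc
TAP1, chr6:32853705-32853954, minus strand: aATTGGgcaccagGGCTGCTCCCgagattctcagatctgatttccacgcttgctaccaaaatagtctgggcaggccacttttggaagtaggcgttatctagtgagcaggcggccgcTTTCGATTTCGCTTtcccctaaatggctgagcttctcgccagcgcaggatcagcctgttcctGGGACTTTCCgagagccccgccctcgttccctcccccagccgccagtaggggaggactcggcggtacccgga
PSMB9, chr6:32853942-32854191, plus strand: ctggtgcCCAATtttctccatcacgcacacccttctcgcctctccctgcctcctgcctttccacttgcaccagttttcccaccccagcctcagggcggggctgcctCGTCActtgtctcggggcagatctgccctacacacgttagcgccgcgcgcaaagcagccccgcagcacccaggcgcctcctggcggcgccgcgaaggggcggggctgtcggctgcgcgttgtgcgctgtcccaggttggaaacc

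The AP-1 letters TGANTCA were in 0 of the 10 windows of the 8 genes with an entry, against 6.57% of all 35116 windows of that length. The C/EBP letters TTGCNNAA were also in 0 of the 10, against 9.05% of all windows. The interferon core stood in 6 of 10 (20.3% of all windows), NF-kB letters in 4 (22.6%), TGACG in 6 (21.2%) and CCAAT in 6 (32.0%). Adjacent matches overlap, such as both interferon cores of B2M and of TAP1. These matches are a description of the windows, and no match says only that those letters are absent from them. The shares are no test of enrichment, since the motifs were chosen with these sequences in view. The windows are also not independent, those of TAP1 and PSMB9 overlapping and those of HLA-B and HLA-C being alike.

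Levels between genes were compared per kilobase of the principal transcript. In EV, B2M stood highest at 660 ± 29.3 CPM per kilobase (SD, n = 2), followed by HLA-B at 131 ± 14.5. PSMB8 (64.6 ± 4.69) and HLA-C (62.0 ± 5.87) came next, and their libraries overlapped, so their order was not resolved. HLA-E followed at 45.5 ± 1.73, PSMB9 at 15.7 ± 3.15, TAP1 at 7.50 ± 0.981, HLA-F at 4.33 ± 0.286 and TAP2 at 3.76 ± 0.368. The places of HLA-F and TAP2 are uncertain, since reads shared with other genes may be missing from their counts. Of the 75-base windows of the TAP2 principal transcript, 80.0% also occur in other genes. For HLA-F, 28.5% of exon bases overlap other annotated genes, all on the opposite strand, and 0% of its 75-base windows occur in other genes. The ratio of B2M to HLA-B, per kilobase, was 5.06 in EV, 6.54 in dnCEBP and 5.17 in dnFOS. Order depended on the length used, since per kilobase of merged exons HLA-E (39.8 ± 1.51) stood above HLA-C (38.0 ± 3.59) and PSMB8 (24.2 ± 1.76).

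**Figure D1:**
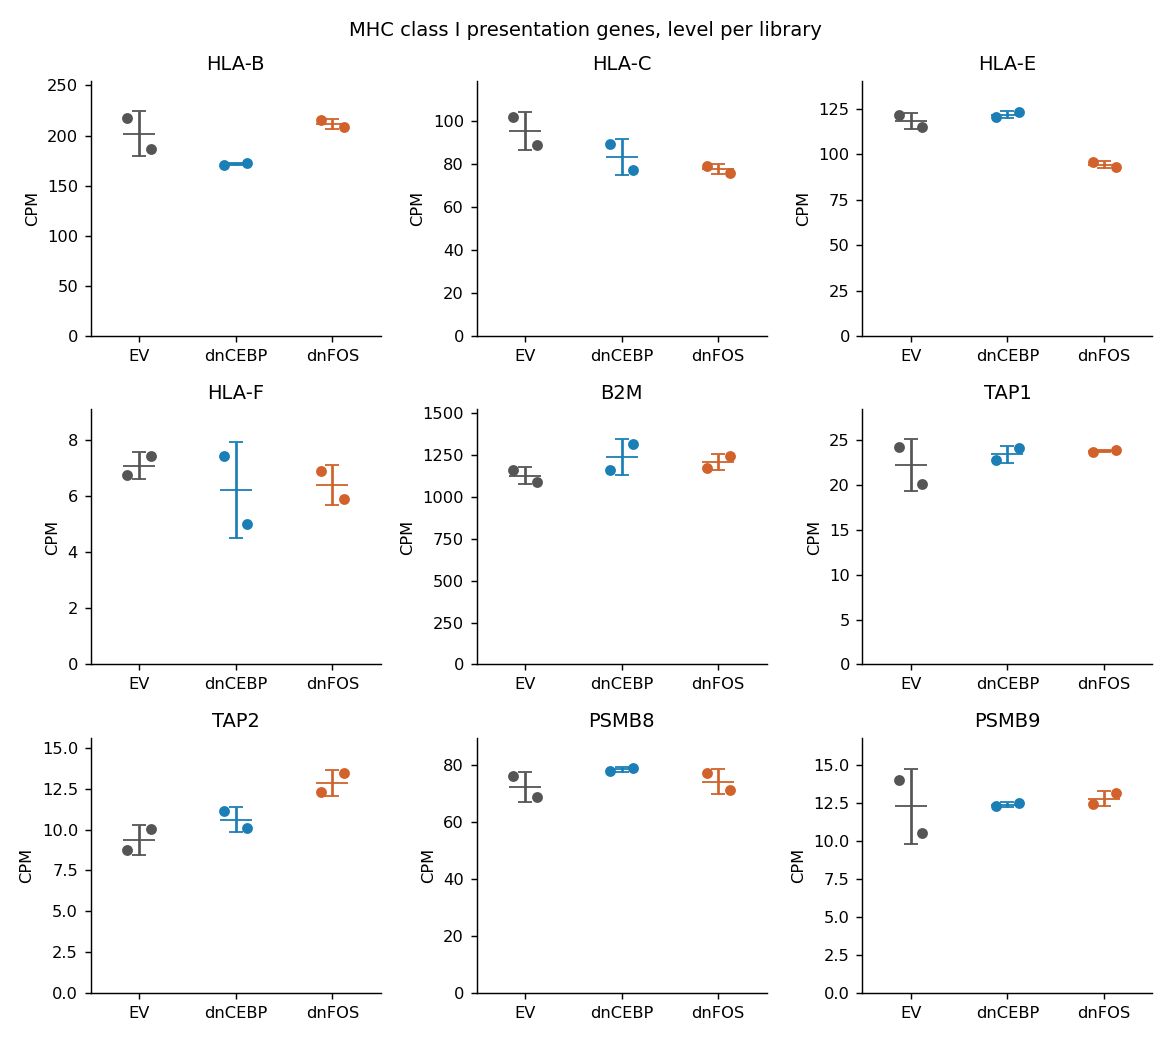
Levels of the 9 genes in CPM (y axis from 0) by group (x axis), with a point for each library and a bar for the mean ± SD of 2 libraries. HLA-E in both dnFOS libraries (92.9 and 95.8) sits below the other 4 libraries (115 to 123), while the points of TAP1 and PSMB9 overlap between groups.

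In dnCEBP compared with EV, the class I genes stayed close to the control. By edgeR's quasi-likelihood test, 0 of 9 passed an adjusted p of 0.05, against 1.07% of all genes tested. The log2 fold changes ran from -0.24 to 0.18, with a median of 0.04 beside 0.00 over all genes, and the 95% intervals of the 9 genes lay between -0.60 and 0.52. At an unadjusted p under 0.05 there were 2 genes, HLA-B and HLA-C, and 0 with a trend on GC content and length removed. DESeq2 and limma-voom also called 0, with 1 and 2 genes at an unadjusted p under 0.05.

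HLA-B, a classical heavy chain, stood at 218 and 186 CPM in the EV libraries and at 171 and 172 CPM in the dnCEBP libraries. The groups did not overlap, but EV replicate 2 was nearer to dnCEBP than to EV replicate 1. The fitted log2 fold change was -0.24 ± 0.09 (SE), with an interval from -0.41 to -0.06 and an adjusted p of 0.241 by edgeR. HLA-C stood at 102 and 88.9 CPM in EV and 89.0 and 77.3 CPM in dnCEBP, groups that overlapped, with a log2 fold change of -0.20 ± 0.09 (adjusted p = 0.394, edgeR). With the trend on GC content and length removed HLA-B stood at -0.12 and HLA-C at -0.07, and without EV replicate 1 they stood at -0.12 and -0.10. The median of all genes in dnCEBP also fell with GC content, from 0.10 under 40% GC to -0.28 above 65%. HLA-E, the heavy chain read by NK receptors, was level in both groups, with 122 and 115 CPM in EV and 120.4 and 123 CPM in dnCEBP. In the main fit its interval of -0.13 to 0.21 on the log2 scale limits the level to between 0.914 and 1.16 times that of EV. With the trend removed HLA-E stood at 0.13 (adjusted p = 0.540, edgeR), against 0.04 as fitted.

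In dnFOS compared with EV, HLA-C and HLA-E were called lower and no member higher, calls that ended when a trend on GC content and length was removed. The 2 of 9 called compare with 15.0% of all genes tested, and lower calls made up 7.76% of all genes. HLA-E stood at 0.797 times its level in EV (95% interval 0.707 to 0.898) and HLA-C at 0.813 times (0.712 to 0.929). The median log2 fold change of the 9 genes was 0.05, beside 0.00 over all genes. Besides these, TAP2 reached an unadjusted p under 0.05, in the higher direction.

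HLA-E had 122 and 115 CPM in EV and 95.8 and 92.9 CPM in dnFOS. Both dnFOS libraries lay below both EV libraries, by more than the spread within either group. The log2 fold change was -0.33 ± 0.08 (SE, adjusted p = 0.00814, edgeR). HLA-C had 102 and 88.9 CPM in EV and 79.1 and 75.8 CPM in dnFOS, also without overlap. For HLA-C, though, EV replicate 2 was nearer to dnFOS replicate 1 than to EV replicate 1. Its log2 fold change was -0.30 ± 0.09 (adjusted p = 0.0301, edgeR).

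HLA-B, which pairs with the same light chain, was not called. It had 215 and 208 CPM in dnFOS, inside the range of the EV libraries (186 to 218 CPM), with a log2 fold change of 0.07 ± 0.09 (adjusted p = 0.666, edgeR) and an interval from -0.11 to 0.25. HLA-F, a nonclassical heavy chain of low level, had 6.75 and 7.42 CPM in EV, 7.44 and 5.02 in dnCEBP, against 6.90 and 5.90 in dnFOS. With 61 to 201 counts per library, its interval in dnFOS was wide, from -0.59 to 0.32, and no difference was called. In addition, 28.5% of the exon bases of HLA-F overlap other annotated genes, among them the antisense gene HLA-F-AS1.

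The dnFOS differences moved with GC content across all genes. In genes with under 40% GC the median log2 fold change from EV was 0.25, and it was -0.16 at 55% to 60% and -0.23 at 60% to 65%, where 69.1% and 76.8% of genes were lower in dnFOS. HLA-E has 58.7% GC, HLA-C 61.3% and HLA-B 60.1%, so both called genes lay in classes whose median was also below EV, while HLA-B lay above the median of its class. With a smooth trend on GC content and length removed from each library, HLA-E stood at -0.14 ± 0.08 (adjusted p = 0.262, edgeR) and HLA-C at -0.05 ± 0.08 (0.737), and both calls ended. In that fit 2 members were called higher, HLA-B at 0.29 ± 0.08 (adjusted p = 0.0120) and TAP2 at 0.47 ± 0.16 (0.0472), against 13.1% of all genes called and 5.07% called higher. In dnCEBP the same fit called 0 of 9, against 1.63% of all genes. Over 17 other settings, HLA-E in dnFOS against EV was called under 13 and HLA-C under 11. The call of HLA-E and HLA-C also ended without EV replicate 1 (log2 fold changes of -0.29 and -0.20, adjusted p of 0.124 and 0.379) or without dnFOS replicate 2 (-0.31 and -0.27, adjusted p of 0.0570 and 0.152).

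**Figure D2:**
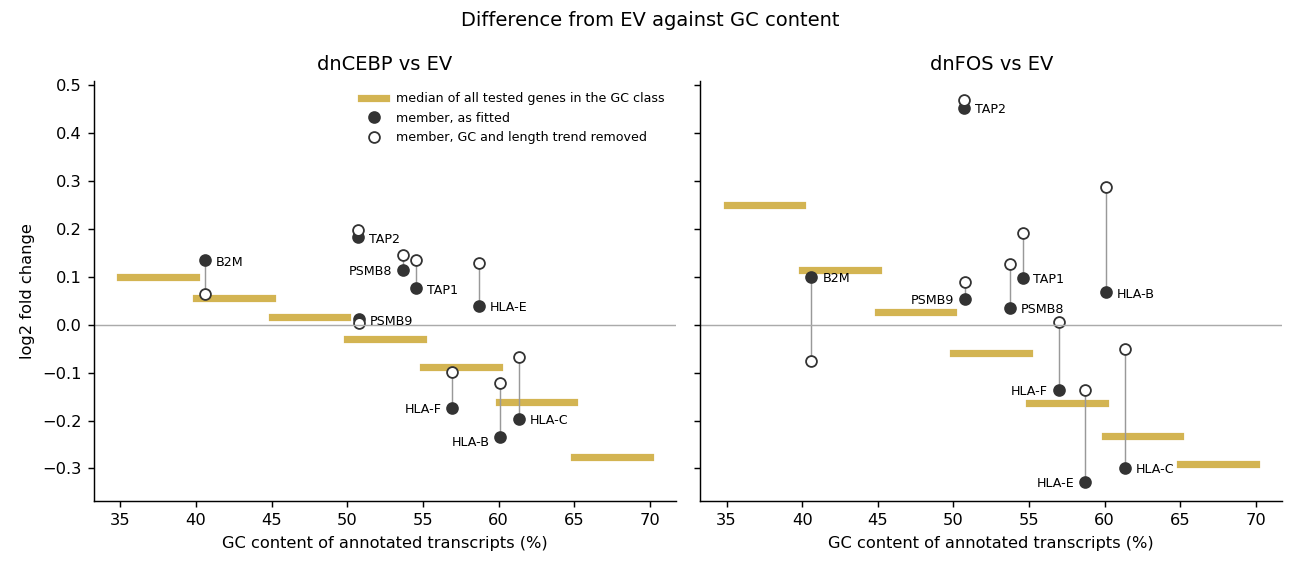
Log2 fold change from EV (y axis) against the GC content of the annotated transcripts (x axis, percent) for dnCEBP and dnFOS. Bars give the median of all tested genes in each GC class (the outermost classes are cut short for display), filled points the 9 members as fitted and open points the same genes with the GC and length trend removed. In dnFOS the class medians fall from 0.25 to -0.29, HLA-C moves from -0.30 to -0.05 and HLA-B from 0.07 to 0.29.

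In dnFOS compared with dnCEBP, HLA-E was lower and HLA-B higher. The 2 of 9 called compare with 14.7% of all genes tested. HLA-E stood at 0.775 times its level in dnCEBP (95% interval 0.688 to 0.874), with a log2 difference of -0.37 ± 0.08 (adjusted p = 0.00304, edgeR). HLA-B stood at 1.23 times (1.09 to 1.40), with a log2 difference of 0.30 ± 0.09 (adjusted p = 0.0175, edgeR). HLA-C, with a log2 difference of -0.10 ± 0.09 (adjusted p = 0.533), did not pass the test.

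With the GC and length trend removed, HLA-E was again lower, at -0.26 ± 0.08 (adjusted p = 0.0126, edgeR) and HLA-B higher, at 0.41 ± 0.08 (0.000279), with 17.4% of all genes called. HLA-E was called in this comparison under 17 of 17 other settings, at log2 differences of -0.39 to -0.25. HLA-B was called under 14 of 17 and missed the threshold without dnCEBP replicate 1 (adjusted p = 0.0924), dnCEBP replicate 2 (0.0698) or dnFOS replicate 1 (0.0518).

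**Figure D3:**
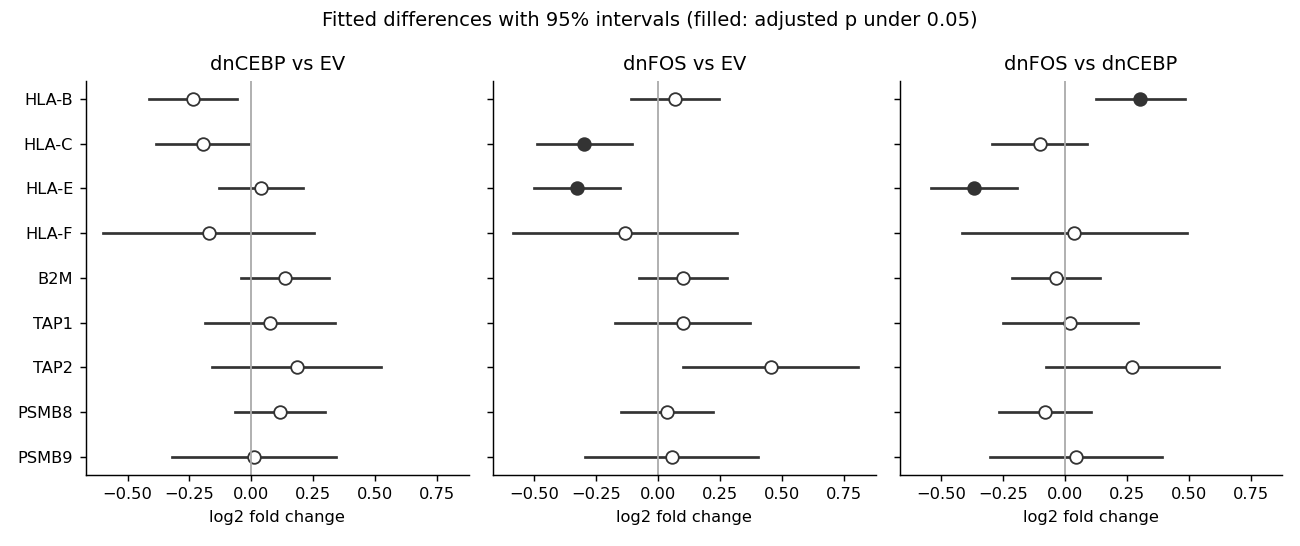
Fitted log2 fold change (x axis) of each of the 9 genes in the 3 comparisons, with a point for the estimate, a line for its 95% interval, and a filled point where the adjusted p was under 0.05. Filled points stand at HLA-C and HLA-E in dnFOS against EV, and at HLA-B and HLA-E in dnFOS against dnCEBP, and none stands in dnCEBP against EV.

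Ratios between heavy chain genes within a library do not depend on library scaling, and those to HLA-B separated dnFOS from EV while that of HLA-E to HLA-C did not. The ratio of HLA-E to HLA-B counts was 0.558 and 0.620 in EV, 0.704 and 0.715 in dnCEBP, against 0.445 and 0.446 in dnFOS. The 3 groups did not overlap, with dnCEBP above and dnFOS below EV. The ratio of HLA-C to HLA-B was 0.467 and 0.478 in EV, 0.521 and 0.449 in dnCEBP, against 0.368 and 0.364 in dnFOS, so only dnFOS stood apart from EV. The ratio of HLA-E to HLA-C was 1.20 and 1.30 in EV and 1.35 and 1.59 in dnCEBP, while dnFOS at 1.21 and 1.23 lay inside the range of EV. An exact two-sided permutation test of 2 libraries against 2 cannot give a p below 0.333, so these ratios carry no call. The principal transcripts of HLA-B and HLA-C were 91.6% identical, and the assignment of reads between them in KO52, whose alleles were not typed, is uncertain. Of 75-base windows in the reference transcripts, 0% for HLA-B, 1.98% for HLA-C and 2.02% for HLA-E also occurred in another gene. Of the exon bases of HLA-B, 18.9% overlap other annotated genes. Most of these (17.8%) lie under AL671883.2, an opposite-strand pseudogene with 0 to 3 counts per library.

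**Figure D4:**
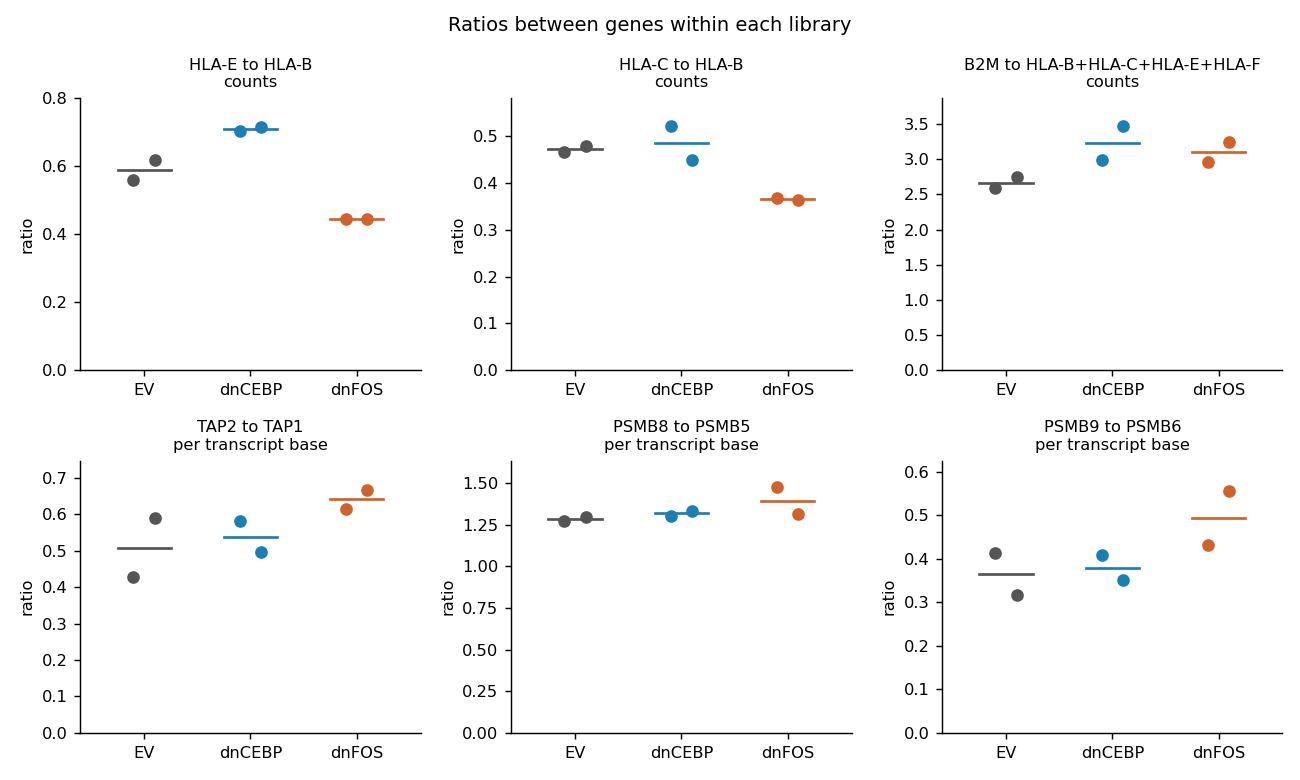
Ratios between 2 genes (or B2M and the sum of the 4 heavy chain genes) within each library, by group, with a point for each library and a line for the mean. Counts are used in the first 3 panels and levels per transcript base in the others, and in the first panel HLA-E to HLA-B stands at 0.445 and 0.446 in dnFOS, below 0.558 to 0.715 in the other libraries.

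B2M, the light chain shared by all class I molecules, did not pass the test in any comparison. It had 1161 and 1091 CPM in EV, 1160.1 and 1313 CPM in dnCEBP, against 1173 and 1241 CPM in dnFOS. Both dnFOS libraries were above both EV libraries by a small margin, and dnCEBP overlapped EV. The log2 fold changes were 0.13 ± 0.09 in dnCEBP (adjusted p = 0.581, edgeR) and 0.10 ± 0.09 in dnFOS (0.494). With 40.6% GC, B2M lay in a class with a median of 0.12 in dnFOS, and its value became -0.08 with the GC and length trend removed. B2M counts were 2.59 and 2.74 times the sum of the 4 heavy chain genes in EV, 2.99 and 3.48 times in dnCEBP, against 2.96 and 3.24 times in dnFOS.

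The transporter genes were level or slightly higher. TAP1 had 24.2 and 20.1 CPM in EV, 22.8 and 24.1 in dnCEBP, against 23.7 and 23.9 in dnFOS, all within the range of EV. TAP2 had 8.73 and 10.0 CPM in EV, 11.1 and 10.1 in dnCEBP, against 12.3 and 13.4 in dnFOS. Both peptide groups lay above EV without overlap, dnCEBP by a narrow margin. The TAP2 log2 fold change in dnFOS was 0.45 ± 0.17 (interval 0.10 to 0.81), with an adjusted p of 0.0748 by edgeR, so it was not called. TAP2 is uncertain, since 32.3% of its exon bases overlap AL669918.1, an annotated coding gene on the same strand, and 80.0% of the 75-base windows of its principal transcript also occur in other genes. AL669918.1 itself had 0 to 6 counts per library.

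Neither immunoproteasome gene passed the test in any comparison. PSMB8 had 76.3 and 68.9 CPM in EV, 78.1 and 79.2 in dnCEBP, against 77.4 and 71.3 in dnFOS. Both dnCEBP libraries lay just above EV, and dnFOS overlapped it. In the main fit its interval in dnFOS, -0.15 to 0.22 on the log2 scale, limits the level to between 0.900 and 1.17 times that of EV. With the GC and length trend removed PSMB8 stood at 0.13 in dnFOS (adjusted p = 0.330, edgeR), against 0.04 as fitted. PSMB9 had 14.0 and 10.5 CPM in EV, 12.3 and 12.5 in dnCEBP, against 12.4 and 13.1 in dnFOS, with the 2 EV libraries the farthest apart. PSMB8 has 20.6% of its exon bases and TAP1 9.49% under the noncoding gene PSMB8-AS1, which runs on the opposite strand and had 103 to 191 counts per library. PSMB9 has 5.66% of its exon bases under PSMB8-AS1 on the same strand, and shares 139 exon bases with PSMB8 on the opposite strand. Whether strand was used in counting is not given in the sources used here.

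The ratio of each induced subunit to the constitutive subunit it replaces was also compared, per transcript base. PSMB8 to PSMB5 was 1.28 and 1.30 in EV, 1.31 and 1.33 in dnCEBP, against 1.48 and 1.32 in dnFOS. PSMB9 to PSMB6 was 0.414 and 0.318 in EV, 0.408 and 0.351 in dnCEBP, against 0.431 and 0.557 in dnFOS. PSMB10 to PSMB7 was 0.213 and 0.220 in EV, 0.244 and 0.188 in dnCEBP, against 0.195 and 0.216 in dnFOS. PSMB10 against its partner overlapped between all groups, whereas both dnFOS libraries lay above both EV libraries for the other 2 ratios. Both dnCEBP libraries also lay above EV for PSMB8 to PSMB5. The gap between the nearest dnFOS and EV libraries was smaller than the spread between the dnFOS libraries in both ratios. Among the constitutive partners in dnFOS, PSMB6 had a log2 fold change of -0.34 ± 0.12 (adjusted p = 0.0589, edgeR). PSMB7 stood at -0.26 ± 0.10 (0.0840) and PSMB5 at -0.09 ± 0.09 (0.601). PSMB9 itself stood at 0.05 ± 0.17 and PSMB8 at 0.04 ± 0.09. The higher PSMB9 to PSMB6 ratio thus came with a lower estimate for PSMB6 and a nearly level PSMB9.

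Counts of calls in the lists that follow stand against 1.07% of all genes in dnCEBP and 15.0% in dnFOS. Chaperones and trimming enzymes of the loading complex included 7 tested genes. CALR, encoding the chaperone calreticulin, fell in dnCEBP by 0.37 ± 0.08 on the log2 scale (adjusted p = 0.0153, edgeR), the 1 call of 7 there, and by 0.27 ± 0.08 in dnFOS (0.0257). PDIA3, the oxidoreductase of the complex, fell in dnFOS by 0.28 ± 0.08 (adjusted p = 0.0215), which makes 2 calls of 7. The list medians were 0.00 in dnCEBP and -0.11 in dnFOS, beside 0.00 over all genes in both. CALR in dnFOS was no longer called with the GC and length trend removed (-0.14, adjusted p = 0.284), while TAPBP, which encodes tapasin and was chosen after its values were seen, was called higher there (0.42, 0.000618, against 0.20 and 0.188 as fitted).

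Other proteasome genes were read from 2 lists. Of 4 further genes of the immunoproteasome and PA28, 0 were called in either peptide group. PSMB10 had the smallest p in dnFOS (log2 fold change -0.34 ± 0.16, adjusted p = 0.143, edgeR, unadjusted p = 0.0354) and POMP, the assembly factor, in dnCEBP (0.16 ± 0.08, 0.478). With the GC and length trend removed, POMP was called lower in dnFOS (-0.36, adjusted p = 0.00165, against 0.09 as fitted), so its direction depended on that step. Of 14 constitutive core subunits, 0 were called in dnCEBP and 2 in dnFOS, both lower, close to the 15.0% of all genes called in dnFOS. They were PSMA6 (-0.40 ± 0.11, adjusted p = 0.0140) and PSMB4 (-0.27 ± 0.09, 0.0462), with a list median of -0.06. That median was -0.19 with the trend removed, with 3 genes called lower, PSMB1 (chosen after its values were seen) being added. PSMA6 and PSMB4 were called lower with the trend removed as well (-0.52 and -0.25).

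Among 16 transcriptional regulators of class I genes, 0 were called in dnCEBP (1.07% of all genes) and 4 in dnFOS (15.0% of all genes), with list medians of -0.03 and 0.06. RFXAP, a subunit of the RFX complex, rose by 1.07 ± 0.22 on the log2 scale in dnFOS (adjusted p = 0.00108, edgeR), with 104 and 128 counts in the EV libraries against 140 and 130 in the shallower dnFOS libraries. STAT2, which carries type I interferon signals (-0.39 ± 0.12, adjusted p = 0.0229), NFYC, an NF-Y subunit (-0.34 ± 0.11, 0.0274), and RELA, the p65 subunit of NF-kB (-0.39 ± 0.14, 0.0473), fell.

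NLRC5, the class I transactivator, was not called, at 0.35 ± 0.16 in dnFOS (adjusted p = 0.138, edgeR) and -0.07 ± 0.15 in dnCEBP (0.900). It passed the threshold in dnFOS with the GC and length trend removed (0.49, adjusted p = 0.0163), where RELA did not (-0.19, 0.329). IRF1 and RFX5 were not called in either group, at 0.01 and 0.17 in dnFOS and at 0.06 and -0.03 in dnCEBP.

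The interferon genes IFNB1, IFNA1, IFNG and IFNL1 had 0 counts in every library. A count of 0 allows up to 0.108 to 0.304 CPM, the worth of 3 counts at each library's depth, for counting error only. Of 9 tested receptors, kinases and SOCS genes, 0 were called against EV in either peptide group by edgeR. JAK1, a kinase of interferon receptors, had the smallest p in dnCEBP (0.24 ± 0.08, adjusted p = 0.193, edgeR, unadjusted p = 0.00688), and IFNAR1, a type I receptor chain, in dnFOS (0.30 ± 0.11, adjusted p = 0.0515, unadjusted p = 0.00790). Between the peptides, in dnFOS against dnCEBP, IFNAR1 was higher (0.40 ± 0.11, adjusted p = 0.00946, edgeR) and JAK1 lower (-0.25 ± 0.08, 0.0373).

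Genes known to respond to interferon were called about as often as other genes in dnFOS, 5 of 31 against 15.0%. Of the 31 tested, 1 was called in dnCEBP, RSAD2, an antiviral enzyme gene, which rose by 0.95 ± 0.14 on the log2 scale (adjusted p = 0.000163, edgeR). In dnFOS 4 rose and 1 fell, with a list median of 0.19 in both groups beside 0.00 over all genes. IFIT5 (0.79 ± 0.19), IFI6 (0.61 ± 0.13), PARP9 (0.56 ± 0.15) and IFIH1 (0.38 ± 0.12) rose, at adjusted p of 0.00380, 0.00233, 0.00906 and 0.0400. GBP2, a guanylate-binding protein gene, fell by 1.21 ± 0.10 (adjusted p = 4.79e-10), from 76.4 ± 4.82 to 33.0 ± 0.953 CPM (SD, n = 2). IFIH1 lost its call with the GC and length trend removed (0.23, adjusted p = 0.187). That fit called 5 higher and 1 lower in dnFOS, against 13.1% of all genes, and 2 higher in dnCEBP, against 1.63%. IFITM1 and IFITM2, chosen after their values were seen, gained calls. In dnFOS they stood at 0.31 (adjusted p = 0.00781, edgeR) and 0.35 (0.000936), and IFITM1 in dnCEBP at 0.30 (0.0351).

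In the MHC class II pathway 1 of 11 genes was called in each group. CIITA, the class II transactivator, fell in dnCEBP by 0.48 ± 0.12 (adjusted p = 0.0404, edgeR), a call that ended with the GC and length trend removed (-0.37, 0.0657). HLA-DMB, which helps load class II, rose in dnFOS by 0.58 ± 0.20 (adjusted p = 0.0486). With the trend removed 3 of 11 were called higher in dnFOS and 0 lower, against 5.07% of all genes called higher. They were HLA-DMB (0.57, adjusted p = 0.0377, edgeR), CIITA (0.35, 0.0243) and HLA-DRB1 (0.24, 0.0334), the last chosen after its values were seen. Of 8 tested class I-like genes, 0 were called in dnCEBP and 1 in dnFOS. ULBP1, a ligand of the NK receptor NKG2D, fell by 1.25 ± 0.37 (adjusted p = 0.0215), with 56 and 79 counts in the EV libraries against 19 and 13 in dnFOS. The list median was -0.49 in dnFOS, beside 0.00 over all genes, and -0.35 with the GC and length trend removed. Its values in dnFOS ran from -1.47 to 0.01, and several of its genes had few counts.

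The 9 genes did not share 1 profile over the 6 libraries. The distance of each gene from the mean profile, on centred log2 CPM, was smallest for PSMB8 (0.159) and TAP1 (0.184) and largest for TAP2 (0.517), HLA-F (0.470) and HLA-E (0.423). The mean profile itself was nearly flat, from -0.06 to 0.06. Among 8319 other genes with a mean of at least 10 CPM, the profiles nearest to it were those of BCOR (0.0324), NUDCD3 (0.0355), DCAF7 (0.0450), KHNYN (0.0460) and PLEKHB2 (0.0616), which is a description of 6 libraries.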

How the data were processed

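Total RNA depleted of ribosomal RNA was sequenced from 6 libraries. Each library had a table of whole-number counts by gene ID, which the authors deposited without normalization. The submitters' processing notes name Trimmomatic, HISAT2, featureCounts, Subread and hg38. Versions, annotation release, strand setting and the treatment of reads matching several genes are not given in the sources used here, so counts of overlapping or similar genes may be low or misassigned.

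Groups and replicate numbers came from the titles. The members, gene lists and alternatives were chosen with earlier results of these data known. The test was that of edgeR 4.0.16, run in R 4.3.3 (filterByExpr at a minimum count of 10, TMM factors, robust quasi-likelihood fit of a mean per group over all 6 libraries, 3 residual degrees of freedom, two-sided tests, Benjamini-Hochberg adjustment over 15395 genes, calls under 0.05). CPM use scaled library sizes. Standard errors came from the fold change and its F statistic, and log2 fold changes are written with ± SE. Total counts of 9862994 to 27663179 put 3 counts at 0.108 to 0.304 CPM. Replicates of a group had log2 CPM correlations of 0.981 to 0.987 and differed by more than sampling noise.

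Alternatives were other scalings and filters, DESeq2 1.42.0, limma-voom (limma 3.58.1), 2 groups only, a replicate block, a trend on GC content and length removed as offsets (mgcv 1.9.3, 15222 genes with values from GENCODE 29), 5 features over 1% of a library left out, and each library left out. The code was tested on simulated data. Named genes were all 9 members, NLRC5, IRF1, RFX5, a further regulator that is not reported here, genes called against EV in each list (the 5 of smallest p if more, the 1 of smallest p if none) and the 5 nearest profiles. Genes named outside this rule were markers used to check the cells, partners in ratios and overlaps, and those said to be chosen after their values were seen.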

Additional observations from a re-analysis of the deposited data

How the results depend on the processing

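Of 458 values of single members under 17 alternatives, 413 kept their direction and side of the threshold, 26 changed sign without a call, 13 lost a call and 6 gained one. The haplotype alternative was not run because each symbol had 1 ID, and DESeq2 gave no adjusted p for HLA-F in dnCEBP. In dnCEBP 0 members were called under every alternative. Total calls there were 165, and 255 with no low-count filter, 297 from the 2 groups alone, 488 with the replicate block, 251 with the GC and length trend removed, 332 with the block and the trend removed, and 33 to 314 without 1 library. In dnFOS against EV, total calls were 972 to 2426 and members called 0 to 2 without 1 library (a lone library is assumed to vary like the other groups), and limma-voom called 1 member. In dnFOS against dnCEBP, total calls were 1182 to 2262 and members called 1 to 2 without 1 library. With library totals alone the median of all genes moved to 0.10 in dnFOS against EV and 0.14 against dnCEBP, and higher calls went from 1115 of 2309 to 1905 of 2581 and from 1052 of 2259 to 2101 of 2815. HLA-C in dnFOS then lost its call (-0.20, adjusted p = 0.154, edgeR) and TAP2 gained one (0.55, 0.0324).

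The values that changed sign were not called in any of these fits. With library totals alone they were PSMB9 in dnCEBP (-0.00997) and, in dnFOS against dnCEBP, HLA-C (0.0180), B2M (0.0873) and PSMB8 (0.0418). With no low-count filter TAP1 in dnFOS against dnCEBP became -0.00046. With the GC and length trend removed HLA-F (0.00628) and B2M (-0.0762) changed sign in dnFOS against EV, and HLA-C (0.0172) against dnCEBP. With the block and the trend removed B2M (-0.0758) and HLA-C (0.0168) did the same. Without 1 library, values in dnCEBP ran from -0.00490 to 0.0787 for HLA-E, -0.0559 to 0.218 for TAP1, -0.184 to 0.235 for PSMB9 and -0.496 to 0.0708 for HLA-F. In dnFOS against EV they ran from -0.0548 to 0.186 for HLA-B, -0.0415 to 0.240 for TAP1, -0.0503 to 0.112 for PSMB8 and -0.148 to 0.278 for PSMB9. Against dnCEBP they ran from -0.199 to 0.00432 for HLA-C, -0.0210 to 0.0638 for TAP1, -0.206 to 0.361 for HLA-F and -0.121 to 0.0570 for B2M. The cause was not tested.

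Over the tested genes, the deviations of libraries with the same replicate number had correlations of 0.02, 0.03 and 0.09. Whether the numbers pair the libraries for some of the genes was not tested. The main fit called 165, 2309 and 2259 genes in the 3 comparisons. The replicate block called 488, 3172 and 3013 genes and 0, 3 and 2 members in the 3 comparisons, TAP2 in dnFOS against EV being added (0.46, adjusted p = 0.0422). With 2 libraries a group, HLA-F, TAP2 and PSMB9 had intervals over 0.6 wide on the log2 scale.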
